A study of Mus musculus with 6 samples.

Results

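The genes of fatty acid uptake and mitochondrial beta-oxidation were followed in immature mouse cardiomyocytes (imCMs) that had been grown with cardiac fibroblasts. The set held 31 genes, chosen by their place in the pathway with earlier results of these data known, out of 27179 genes in the bulk count table. All 31 were matched by Entrez identifier, and all 31 passed the filter on low values that left 14041 genes for testing. They were taken by step, from 4 genes of uptake and activation through 5 of the carnitine shuttle, 5 acyl-CoA dehydrogenases, 5 genes of hydration, second dehydrogenation and thiolysis, 4 auxiliary enzymes and 3 of electron transfer to 5 thioesterase, lipid droplet and other genes.

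Long-chain fatty acids enter a cardiomyocyte through membrane carriers, are bound by a cytosolic binding protein and are activated to acyl-CoA. Carnitine palmitoyltransferases carry the acyl group into the mitochondrion, where each round of beta-oxidation removes a two-carbon unit as acetyl-CoA and hands electrons to the electron transfer flavoprotein. The heart relies mostly on glucose and lactate before birth and turns to fatty acids as its main fuel in the weeks after it, and many genes of the pathway are known targets of the nuclear receptors PPAR and ERR with the coactivator PGC-1.

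All cells were from C57BL/6 mice. imCMs from neonatal hearts were grown with fibroblasts from neonatal hearts (imCM-NF, 2 bulk libraries) or from adult hearts (imCM-AF, 2 bulk libraries), and both groups therefore contained fibroblasts, with no library of imCMs alone in bulk. The fibroblasts had been passaged before use, more of them were plated per imCM in imCM-AF than in imCM-NF, and the cells were separated again before RNA was taken. Single cells of the same system were read on 2 nanowell chips (ICELL8), 1 labelled cardiomyocytes and 1 labelled fibroblasts. Total counts of the bulk libraries ran from 9278909 to 12088577. The labels do not say that the 2 libraries of a group came from separate cultures, so the p-values measure the spread between these libraries, which may be technical. The defining markers of cardiomyocytes were present at high levels. All 15 passed the filter, led by Myh6 and Actc1, and their summed level ran from 40559 to 56028 library-scaled counts (CPM). All 12 fibroblast markers passed as well, led by Col1a1 and Fn1, with summed levels of 11758 to 21794 CPM. Passing the filter therefore does not tell the 2 cell types apart.

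The pathway was higher with adult fibroblasts at nearly every step. Calls required both an adjusted p under 0.05 (edgeR quasi-likelihood test, Benjamini-Hochberg adjustment over all tested genes) and an absolute log2 fold change over 0.58, and a log2 difference below is the fitted log2 fold change of imCM-AF over imCM-NF. By that rule 17 of the 31 genes rose in imCM-AF, against 6.15% of all tested genes, and 0 of the 31 fell, against 4.99% of all tested genes (at an unadjusted p under 0.05, and in DESeq2 and limma-voom, 0 also fell). On the adjusted p alone 27 of the 31 were past the threshold, all of them higher in imCM-AF, against 27% of all tested genes in either direction. Both imCM-AF libraries lay above both imCM-NF libraries for 30 of the 31 genes, against 32.1% of all tested genes, and below them for 0, against 33.8%. The remaining gene was Acads, whose groups overlapped. The median log2 fold change of the 31 genes was 0.63, beside 0.0011 for all tested genes, and the single values ran from -0.00094 to 4.04.

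**Figure D1:**
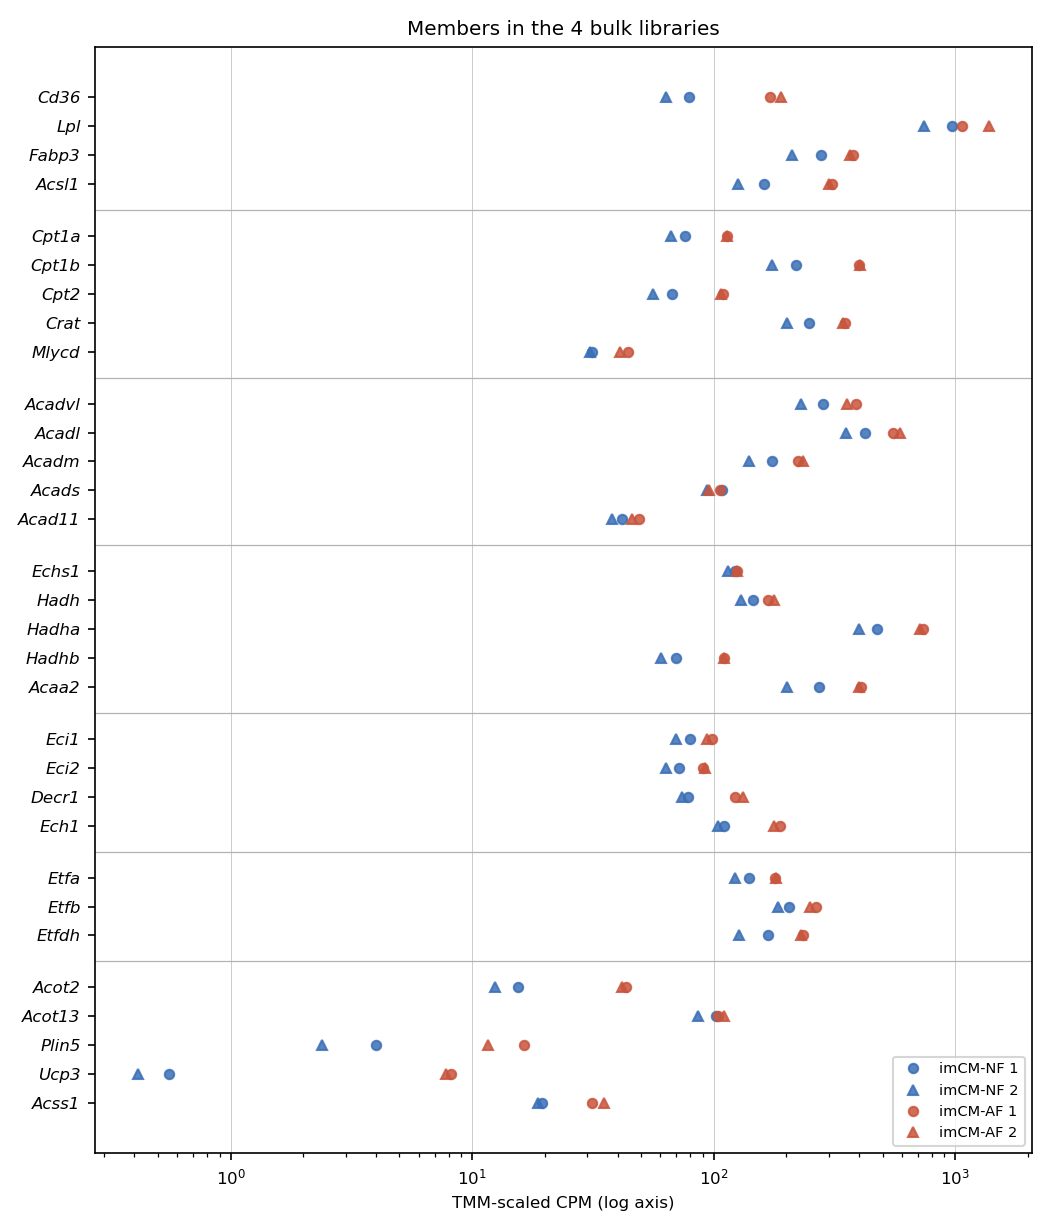
TMM-scaled CPM of each of the 31 genes in the 4 bulk libraries (log axis), with imCM-NF in blue, imCM-AF in red, circles for replicate 1 and triangles for replicate 2, and grey lines between steps. The red points lie to the right of the blue ones for 30 genes, and the gap is widest for Ucp3 at the bottom.

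The steepest rises belonged to genes at the margin of the pathway rather than to its core enzymes. Ucp3, a mitochondrial uncoupling protein that is induced by fatty acids in heart and skeletal muscle, measured 0.557 and 0.413 CPM with neonatal and 8.21 and 7.81 CPM with adult fibroblasts. The imCM-NF values rest on 5 counts in each library, those in imCM-AF on 90 and 93 counts. The log2 difference was 4.04 ± 0.33 (SE, adjusted p = 2.58e-07). Plin5, which coats lipid droplets and tethers them to mitochondria, measured 4.01 and 2.40 CPM with neonatal and 16.4 and 11.6 CPM with adult fibroblasts. The log2 difference was 2.16 ± 0.25 (SE, adjusted p = 8.18e-06). Acot2, a thioesterase of the mitochondrial matrix that frees fatty acids from acyl-CoA, measured 15.5 and 12.5 CPM with neonatal and 43.3 and 41.6 CPM with adult fibroblasts. It rose by 1.61 ± 0.13 on the log2 scale (SE, adjusted p = 1.57e-07). The groups of each of these genes were well apart, with even the lower imCM-AF library more than 2-fold above the higher imCM-NF library.

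Promoter sequences of 25 of the 31 genes were found in RefSeq (build GRCm38.p6, 27 promoters of 250 bases before to 50 bases after a start site). The letters TCAAGGTCA, the extended half-site bound by ERR receptors, were searched on both strands and stood in 0 of these 27 promoters, beside 0.423% of 32851 promoters of all genes. The direct repeat of AGGTCA with 1 base between the copies, the element of PPAR with RXR, was in 0 of 27 as well, beside 0.04% of all promoters. That says only that these exact letters are not in the window. The single copy AGGTCA, which both elements contain and which was looked for after the other counts were known, stood in 8 of the 27 promoters (29.6%), of 7 genes, beside 16.3% of all promoters. Among the called genes these were Ucp3, Plin5, Cd36 and Cpt1a, and their upstream stretches are shown because they include the steepest rises and the entry points of the pathway. Each runs from 20 bases before the first match to the base before the start site, 5′ to 3′ on the strand of the gene, with the match in capitals on either strand (AGGTCA or TGACCT).
Ucp3 (chr7:100472822-100472990, plus strand): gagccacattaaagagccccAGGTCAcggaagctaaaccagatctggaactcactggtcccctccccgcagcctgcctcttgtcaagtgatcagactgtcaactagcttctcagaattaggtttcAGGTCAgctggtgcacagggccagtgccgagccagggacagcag
Plin5 (chr17:56117549-56117738, minus strand): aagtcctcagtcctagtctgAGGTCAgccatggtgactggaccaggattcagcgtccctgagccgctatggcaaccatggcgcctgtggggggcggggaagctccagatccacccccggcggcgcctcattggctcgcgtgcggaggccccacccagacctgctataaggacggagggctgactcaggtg
Cd36 (chr5:17835897-17836144, minus strand): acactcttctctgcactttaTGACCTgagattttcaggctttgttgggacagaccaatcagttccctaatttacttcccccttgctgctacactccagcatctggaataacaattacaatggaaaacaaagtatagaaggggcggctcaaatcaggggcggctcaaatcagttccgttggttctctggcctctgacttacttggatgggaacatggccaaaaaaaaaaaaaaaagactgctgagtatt
Cpt1a (chr19:3323187-3323300, plus strand): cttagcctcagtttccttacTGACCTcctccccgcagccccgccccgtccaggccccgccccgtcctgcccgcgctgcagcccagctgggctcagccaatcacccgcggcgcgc
The Ucp3 stretch holds it at 2 places, -149 and -44 from the start site, and the others at 1 place each, -170 in Plin5, -228 in Cd36 and -94 in Cpt1a. It was also found in Acadm, Acadvl and Echs1, which were not called.

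At uptake and activation 3 of 4 genes were called, and all 4 lay higher in both imCM-AF libraries. Cd36, the main fatty acid translocase of the cardiomyocyte surface, measured 78.7 and 63.4 CPM with neonatal and 171 and 190 CPM with adult fibroblasts, a log2 difference of 1.35 ± 0.11 (SE, adjusted p = 2.56e-07). Acsl1, the long-chain acyl-CoA synthetase that commits fatty acids to oxidation in the heart, measured 162 and 126 CPM with neonatal and 310 and 300 CPM with adult fibroblasts, a log2 difference of 1.09 ± 0.12 (SE, adjusted p = 4.89e-06). The mean level of Cd36 was 2.55 times and that of Acsl1 2.12 times as high with adult fibroblasts. Fabp3, the heart fatty acid binding protein, measured 278 and 210 CPM with neonatal and 376 and 367 CPM with adult fibroblasts, a log2 difference of 0.61 ± 0.12 (SE, adjusted p = 0.0017), just inside the fold threshold and under it, at 0.43, without imCM-NF 2. Lpl, the lipase that releases fatty acids from circulating triglyceride, measured 968 and 742 CPM with neonatal and 1062 and 1385 CPM with adult fibroblasts. Its log2 fold change of 0.52 ± 0.16 (SE, adjusted p = 0.025) fell short of the fold threshold, and its nearest libraries differed by less than either pair of replicates did.

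The carnitine shuttle had 4 of 5 genes called. Cpt1b, the muscle form of the outer membrane palmitoyltransferase that sets the rate of entry, measured 219 and 175 CPM with neonatal and 398 and 404 CPM with adult fibroblasts, a log2 difference of 1.03 ± 0.12 (SE, adjusted p = 8.51e-06). Cpt1a, the liver form that the fetal heart also uses, measured 75.9 and 66.7 CPM with neonatal and 114 and 113 CPM with adult fibroblasts, a log2 difference of 0.67 ± 0.10 (SE, adjusted p = 9.12e-05). Both isoforms thus rose, the muscle form from a level per length that was already the higher one: mean length-scaled CPM values (RPKM, reads per kilobase of transcript at the depth used for CPM) were 68.1 for Cpt1b and 16.5 for Cpt1a in imCM-NF, and 138 and 26.3 in imCM-AF. Cpt2, the inner membrane partner, measured 67.3 and 56.2 CPM with neonatal and 110 and 107 CPM with adult fibroblasts, a log2 difference of 0.81 ± 0.10 (SE, adjusted p = 2.24e-05). Crat, which buffers acetyl groups as acetylcarnitine, measured 248 and 202 CPM with neonatal and 351 and 342 CPM with adult fibroblasts, a log2 difference of 0.63 ± 0.11 (SE, adjusted p = 0.00075), which was 0.49 and no longer a call without imCM-NF 2. Mlycd, which degrades the Cpt1 inhibitor malonyl-CoA, was not called, at 0.46 ± 0.10 on the log2 scale (SE, adjusted p = 0.0037).

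The acyl-CoA dehydrogenases, which open each round of oxidation according to chain length, had 0 of 5 genes called. For the very long, long and medium chain enzymes this was a matter of size, since Acadvl (0.54), Acadl (0.56) and Acadm (0.54) were past the adjusted p threshold on the log2 scale with adjusted p-values of 0.0030, 0.0027 and 0.0018, and stood just below the fold threshold that Fabp3 and Crat just cleared. Acadl measured 423 and 354 CPM with neonatal and 554 and 592 CPM with adult fibroblasts. Acads, the short-chain enzyme, was flat, at 108 and 94.3 CPM with neonatal and 106 and 96.0 CPM with adult fibroblasts. The log2 difference was -0.00094 ± 0.10 (SE, adjusted p = 0.995). Acad11, which acts on very long chains, had a log2 difference of 0.26 ± 0.10 (SE, adjusted p = 0.065) and did not pass either threshold.

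Of the 5 genes for the remaining reactions of the cycle 3 were called. Hadha and Hadhb, the alpha and beta subunits of the trifunctional protein of the inner membrane that handles long chains, had nearly the same change. Hadha measured 473 and 399 CPM with neonatal and 737 and 716 CPM with adult fibroblasts, a log2 difference of 0.74 ± 0.12 (SE, adjusted p = 0.00041). Hadhb measured 69.7 and 60.4 CPM with neonatal and 110 and 110 CPM with adult fibroblasts, a log2 difference of 0.76 ± 0.10 (SE, adjusted p = 2.93e-05). Acaa2, the matrix thiolase for medium and shorter chains, measured 272 and 202 CPM with neonatal and 407 and 399 CPM with adult fibroblasts, a log2 difference of 0.77 ± 0.13 (SE, adjusted p = 0.00035), which was 0.57 and no longer a call without imCM-NF 2. Of the 2 matrix enzymes that were not called, Hadh, the hydroxyacyl-CoA dehydrogenase, had 0.34 ± 0.10 on the log2 scale (SE, adjusted p = 0.019). Echs1, the short-chain hydratase, measured 122 and 114 CPM with neonatal and 124 and 125 CPM with adult fibroblasts, with 0.07 ± 0.09 on the log2 scale (SE, adjusted p = 0.60).

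Among the auxiliary enzymes, which rearrange the double bonds of unsaturated fatty acids, 2 of 4 were called. Decr1, the dienoyl-CoA reductase, measured 78.1 and 74.0 CPM with neonatal and 123 and 133 CPM with adult fibroblasts, a log2 difference of 0.75 ± 0.10 (SE, adjusted p = 2.60e-05). Ech1, a dienoyl-CoA isomerase, measured 110 and 105 CPM with neonatal and 189 and 177 CPM with adult fibroblasts, a log2 difference of 0.77 ± 0.10 (SE, adjusted p = 2.38e-05). The enoyl-CoA isomerases Eci1 and Eci2 had 0.36 and 0.43 on the log2 scale (adjusted p = 0.012 and 0.0034) and were not called. In electron transfer, Etfdh, the membrane enzyme that passes electrons to ubiquinone, measured 167 and 127 CPM with neonatal and 234 and 230 CPM with adult fibroblasts, a log2 difference of 0.66 ± 0.12 (SE, adjusted p = 0.00065), which was 0.48 and no longer a call without imCM-NF 2. Etfa and Etfb, the subunits of the flavoprotein that feeds it, had 0.45 and 0.40 (adjusted p = 0.0033 and 0.0080) and were not called. Of the last group, Acss1, the mitochondrial acetyl-CoA synthetase, measured 19.4 and 18.8 CPM with neonatal and 31.5 and 35.2 CPM with adult fibroblasts, a log2 difference of 0.81 ± 0.12 (SE, adjusted p = 0.00011). Acot13, a second thioesterase, had 0.19 ± 0.10 (SE, adjusted p = 0.17), which contrasts with the value of Acot2 above, although the difference between the 2 genes was not tested.

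**Figure D2:**
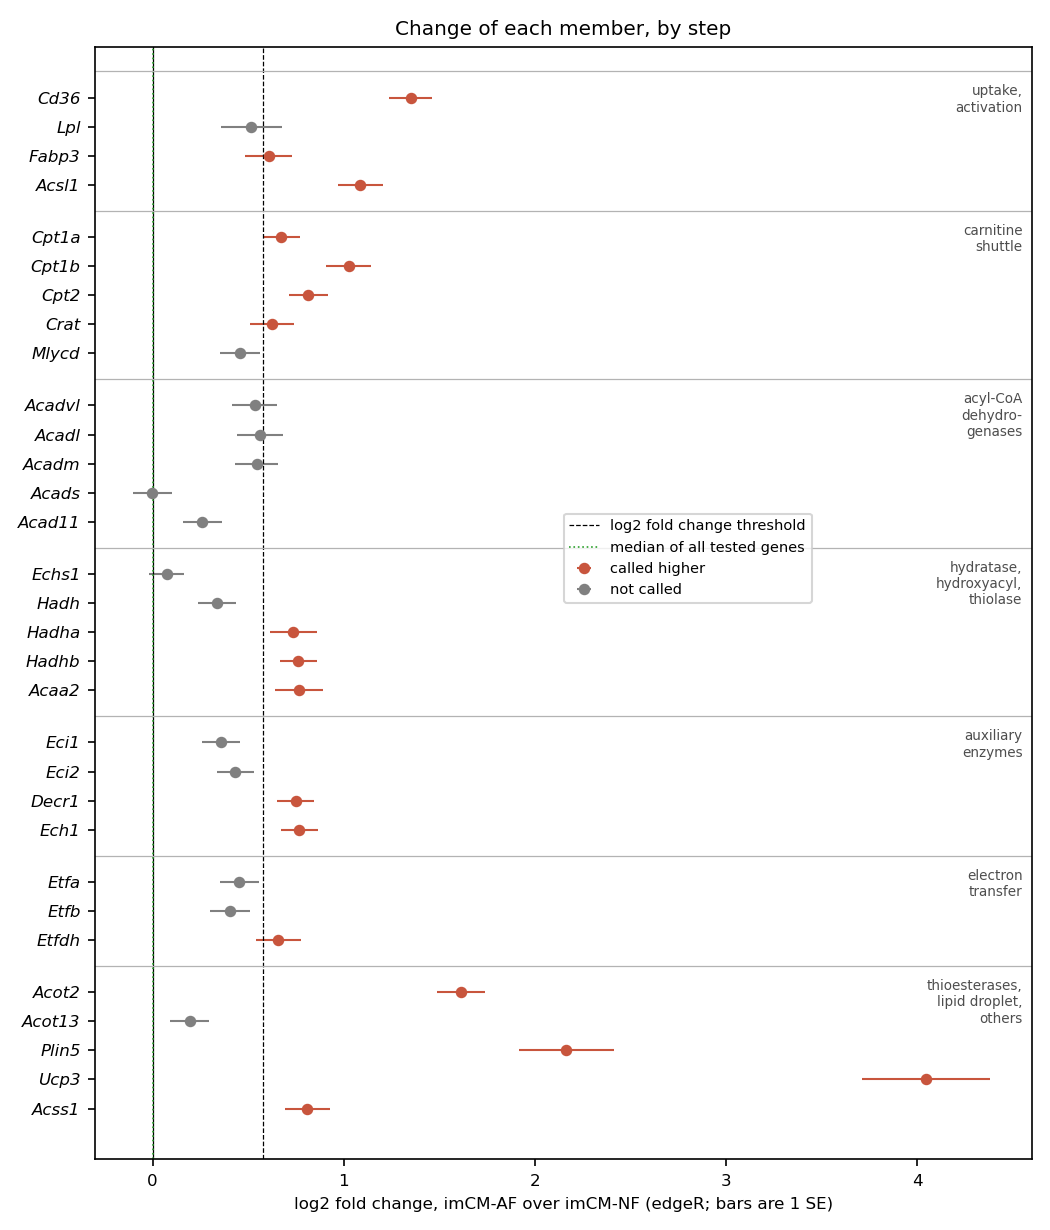
Log2 fold change of imCM-AF over imCM-NF for each of the 31 genes (edgeR, bars 1 SE), grouped by step, with called genes in red and the others in grey. The dashed line is the threshold of 0.58 and the dotted line the median of all tested genes, 0.0011. The acyl-CoA dehydrogenases all sit below the threshold, and Acot2, Plin5 and Ucp3 lie farthest to the right.

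Counts per length put the steps on 1 scale. In imCM-NF the highest mean RPKM values were those of Fabp3 (297), Etfb (218), Lpl (208) and Acadl (203), and in imCM-AF those of Fabp3 (451), Acadl (299), Lpl (297) and Etfb (289). The lowest were those of Ucp3 and Plin5, with 0.198 and 1.61 RPKM in imCM-NF and 3.27 and 7.05 RPKM in imCM-AF. The 2 genes with the largest fold changes were thus the least abundant, while Fabp3, Etfb, Lpl and Acadl differed by 1.52, 1.32, 1.43 and 1.48 times. Hadha and Hadhb, subunits of 1 complex, differed in level per length, with 109 and 31.7 RPKM in imCM-NF and 181 and 53.8 RPKM in imCM-AF, while their ratio between groups was 1.67 and 1.70.

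The summed level of the 31 genes was 5236 and 4300 CPM with neonatal and 7182 and 7466 CPM with adult fibroblasts. In bulk, a change in the share of a cell type and a change in RNA per cell cannot be told apart, so the other cell types were measured beside it. Summed fibroblast markers were lower in imCM-AF (14628 and 11758 CPM) than in imCM-NF (19658 and 21794 CPM), and 6 of 12 were called lower and 1 higher. Summed endothelial markers, led by Eng and Cdh5, were lower too (1170 and 1057 CPM beside 1504 and 1606 CPM), and 4 of 10 were called lower. Summed cardiomyocyte markers overlapped (56028 and 40559 CPM with neonatal, 49289 and 53865 CPM with adult fibroblasts), 2 called higher (Ttn and Pln) and 1 lower (Nppa). Macrophage markers, led by Lyz2 and Cd68, summed to 63.8 to 88.6 CPM, and smooth muscle and pericyte markers, led by Acta2 and Tagln, to 1763 to 2445 CPM. Of 8 adipocyte markers 3 passed the filter, Plin1 had 0 counts in all 4 libraries, Adipoq had 1 count in each imCM-NF library and 0 in each imCM-AF library, and the summed level was 44.1 and 40.8 CPM with neonatal and 56.9 and 65.8 CPM with adult fibroblasts, almost wholly from Fabp4 and Cidea. Cidea, a lipid droplet protein, was called higher, at 20.3 and 13.9 CPM with neonatal and 35.3 and 41.0 CPM with adult fibroblasts (log2 difference 1.18 ± 0.15, SE, adjusted p = 2.16e-05), and Fabp4 was not called (-0.15). Set against the cardiomyocyte markers, the 31 genes gave 9.34 and 10.6 counts per 100 marker counts in imCM-NF and 14.6 and 13.9 in imCM-AF, and the groups did not overlap on this scale either. The part of the fibroblast, endothelial and adipocyte markers in the change of single genes was not tested.

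**Figure D3:**
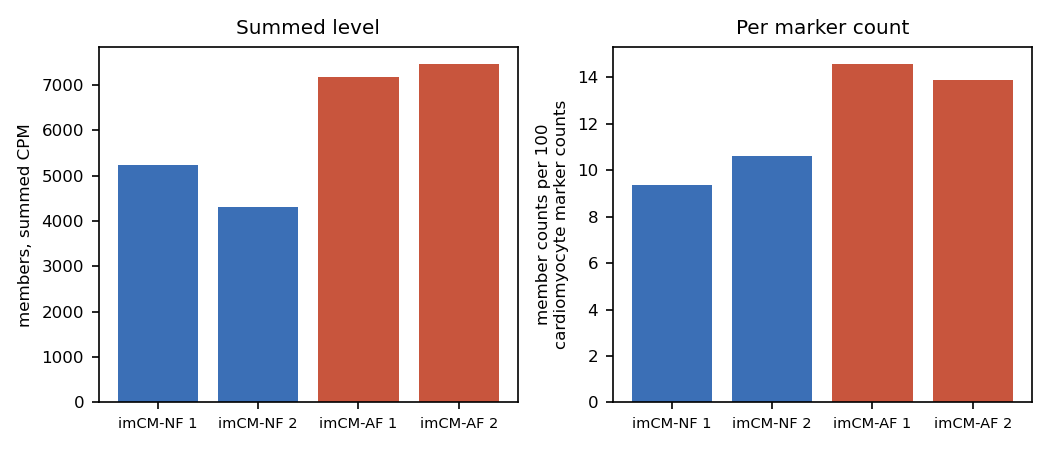
Bars give, for each bulk library, the summed CPM of the 31 genes (left) and their counts per 100 counts of 15 cardiomyocyte markers (right). Both imCM-AF bars stand above both imCM-NF bars on either scale.

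Other lipid genes were measured beside the set. Of 93 further lipid genes in 8 lists, 83 were tested, 16 rose, 7 fell, and the median log2 fold change was 0.16. Peroxisomal oxidation, which shortens very long chains outside mitochondria, had 0 of 13 tested genes called, 2 of them past the adjusted p threshold, beside 6.15% of all tested genes called higher, 4.99% called lower and 27% past that threshold. Other mitochondrial oxidation had 3 of 14 called, all higher. These were Echdc3 at 0.69, Acacb, which makes the Cpt1 inhibitor malonyl-CoA at the mitochondrion, at 0.62, and Slc25a20, the carnitine-acylcarnitine carrier, at 0.59 on the log2 scale. The supply of flavin and quinone acceptors had 0 of 5 called, although 4 were past the adjusted p threshold, with a list median of 0.43. Of 10 tested genes of other uptake and activation, Angptl4, a secreted inhibitor of lipoprotein lipase and a PPAR target, rose by 0.92, and Fabp5 fell by 0.61. Of 11 lipid droplet and lipolysis genes 3 rose, namely Lipe, hormone-sensitive lipase, by 1.22, Dgat2, which completes triglyceride synthesis, by 1.20, and Plin4 by 0.63.

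Fatty acid synthesis moved mostly the other way. Of its 12 genes 5 fell and 1 rose, with a median log2 fold change of -0.53. The desaturase Scd2 measured 342 and 394 CPM with neonatal and 139 and 134 CPM with adult fibroblasts, a log2 difference of -1.43 ± 0.11 (SE, adjusted p = 1.29e-07). Fads2, a desaturase of polyunsaturated fatty acids, fell by 1.25, Scd1 fell by 1.19, and the elongase Elovl6 fell by 0.92. The fifth was Fads1, which fell by 0.83. Me1, the malic enzyme that supplies NADPH, was the gene that rose, by 0.70. In the wells described below, summed levels of Scd1 and Fads1 were highest in wells of the fibroblast chip named NF, at 46.6 and 154 CPM against 13.8 and 37.6 CPM in wells named NFNCM, and the part of the lower fibroblast marker level of imCM-AF in their fall was not tested. Well levels of Scd2, Fads2 and Elovl6 are not given here, so this pair does not stand for the list. Of ketone body genes 1 of 3 fell, Bdh1, by 0.85.

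The list of lipid-responsive regulators, which also held Pdk4, Ucp2 and Lpin1, had 8 of 15 tested genes called, all higher, with a median of 0.62. Of all tested genes 6.15% were called higher and 4.99% lower. Rxrg, a partner receptor of PPAR, had the largest log2 fold change, 2.71 ± 0.54 (SE, adjusted p = 0.0014), and measured 0.334 and 0.165 CPM with neonatal and 1.73 and 1.51 CPM with adult fibroblasts, which is near the filter on low values. Pdk4, the kinase that turns off pyruvate dehydrogenase when fatty acids are burned, measured 63.5 and 42.7 CPM with neonatal and 124 and 131 CPM with adult fibroblasts, a log2 difference of 1.28 ± 0.13 (SE, adjusted p = 3.02e-06). Ucp2, another uncoupling protein, rose by 0.996 and Ppargc1b, which encodes PGC-1 beta, by 0.92. The other 4 were Ppargc1a (0.87), Esrrg (0.78), Lpin1 (0.77) and Ppara (0.60).

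**Figure D4:**
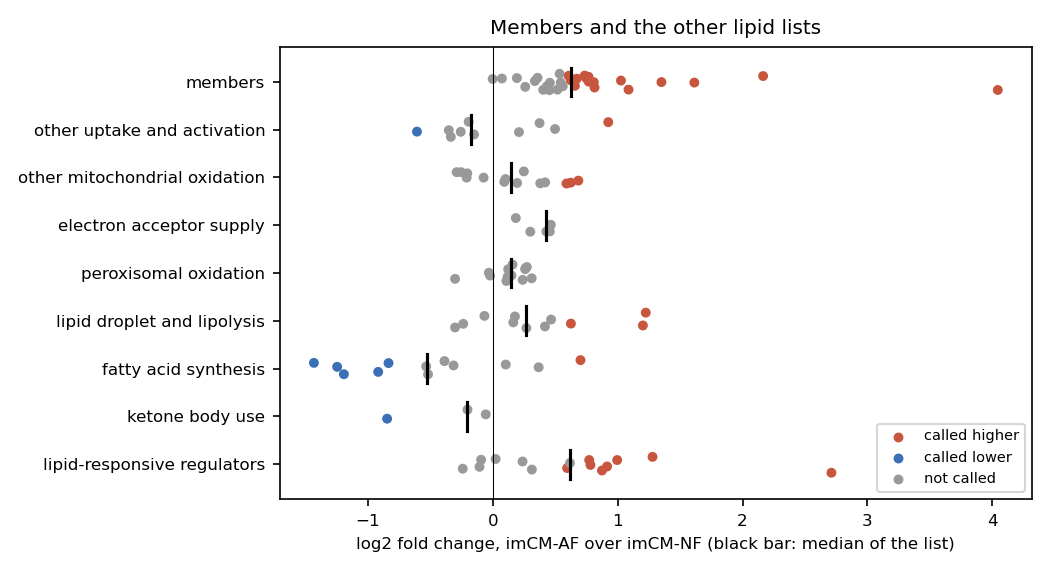
Log2 fold change of imCM-AF over imCM-NF for the 31 genes (top row) and for the tested genes of the 8 other lipid lists. Each point is 1 gene, red where called higher, blue where called lower and grey otherwise, and the black bar is the median of the list, 0.63 for the 31 genes and -0.53 for fatty acid synthesis.

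The single-cell chips offered a second reading of the same genes. GEO's labels give each chip a cell type but no co-culture, and the wells carry names in the authors' report files. Wells named AFNCM and NFNCM (3 numbered values each) and NCM0 (2 values) were on the cardiomyocyte chip, and wells named AF, NF, AF0 and NF0 (2 values each) were on the fibroblast chip. The bulk titles use the letters NCM, NF and AF for neonatal cardiomyocytes and the 2 fibroblast sources, and what 0 stands for is not stated in the sources used here. With 1 chip per cell type and names that are not GEO groups, no test was made. Levels are unique molecular identifiers (UMIs) summed over the kept wells of a name, as CPM, with exact Poisson intervals of 95% that cover counting error only. Of 2482 wells 20 were controls and 2248 were kept, 1261 on the cardiomyocyte chip and 987 on the fibroblast chip, and the chips shared 269 well barcodes. Median depth per well ran from 15972 to 18838 UMIs by name on the cardiomyocyte chip and from 17323 to 43012 on the fibroblast chip.

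Wells of the cardiomyocyte chip carried more of the pathway than those of the fibroblast chip under every name. The summed level of the 31 genes was 4933 CPM (4873 to 4992) in NCM0, 4558 CPM (4520 to 4597) in NFNCM and 4384 CPM (4348 to 4420) in AFNCM. On the fibroblast chip it was 1760 CPM (1738 to 1782) in NF0, 1520 CPM (1491 to 1548) in NF, 1292 CPM (1270 to 1315) in AF0 and 1380 CPM (1357 to 1403) in AF. The NF0 and NF wells also held cardiomyocyte marker UMIs, 5008 and 3796 CPM, beside 249 CPM in AF0 and 593 CPM in AF. For 20 of 31 genes every name of the cardiomyocyte chip lay above every name of the fibroblast chip, against 22.6% of the 93 other lipid genes, which stand in here for all genes. Among the 20, Cpt2 and Eci2 were barely apart. Their lowest cardiomyocyte names had 19.9 and 35.9 CPM, and their highest fibroblast names 19.7 and 35.2 CPM. The widest gap among abundant genes was that of Fabp3, whose lowest level on the cardiomyocyte chip, 263 CPM, was 4.20 times the highest on the fibroblast chip, 62.6 CPM. Lpl, at 654 to 848 CPM against 12.0 to 246 CPM, and Acaa2, at 174 to 251 CPM against 21.3 to 52.4 CPM, were also well apart. The other 11 did not separate the chips. Cpt1a had 15.0 to 22.4 CPM in the cardiomyocyte names and 12.4 to 61.2 CPM in the fibroblast names, and Hadh 81.7 to 100 CPM against 67.8 to 101 CPM.

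Between AFNCM and NFNCM wells the sum did not show the bulk difference. The numbered values of AFNCM ran from 4061 to 4649 CPM and overlapped those of NFNCM, from 4315 to 4922 CPM. Of the 31 genes 19 had the higher summed level in AFNCM, and over the 30 with UMIs in both names the median log2 ratio was 0.06, from -1.59 to 1.97. The 3 AFNCM values lay above the 3 NFNCM values for 4 genes (Acadl, Acad11, Acaa2 and Decr1) and below them for 4 (Fabp3, Acadvl, Acadm and Acot13), and they overlapped for 23. Among the 93 other lipid genes 17.2% lay above and 7.53% below in the same way, so that neither count of 4 is a result about the set. Of the 17 genes called in bulk, 12 had the higher sum in AFNCM. The share of all genes with the higher sum in AFNCM was not computed, so the counts of 19 and 12 are not read as a result about the set. Among the called genes, sums were lower in AFNCM for Fabp3, Acsl1, Hadhb and Crat, and Cpt1b had 0 UMIs there. Acsl1 had 39.6 CPM in AFNCM and 52.5 CPM in NFNCM, with numbered values that overlapped. Acaa2 had 224 to 284 CPM in AFNCM and 154 to 200 CPM in NFNCM, and Decr1 157 to 193 CPM and 112 to 133 CPM, both in the bulk direction. Fabp3 had 246 to 287 CPM in AFNCM and 341 to 493 CPM in NFNCM, the opposite of bulk. Cd36 ranged widely in AFNCM, from 50.1 to 148 CPM, around the 87.7 to 103 CPM of NFNCM.

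The make-up of the wells differed between these names. AFNCM wells held fewer cardiomyocyte marker UMIs than NFNCM wells, 39790 against 47460 CPM, and more fibroblast marker UMIs, 3297 against 1762 CPM, as well as more endothelial marker UMIs, 406 against 110 CPM. Adipocyte marker UMIs were higher in AFNCM too, 186 against 49.8 CPM, and macrophage marker UMIs lower, 464 against 823 CPM. The difference in fibroblast and endothelial markers is the reverse of the bulk libraries, in which both were lower in imCM-AF. Cardiomyocyte marker UMIs exceeded fibroblast marker UMIs in 80.9% of AFNCM wells, 88.8% of NFNCM wells and 97.6% of NCM0 wells. In those wells alone the summed level of the 31 genes was 5178 CPM (5135 to 5223) in AFNCM, 5120 CPM (5076 to 5164) in NFNCM and 5012 CPM in NCM0, and 20 of 31 genes were higher in AFNCM. Of the 17 genes called in bulk, 13 were higher in AFNCM there. The share of all genes higher in AFNCM in those wells was not computed, so neither count is read as a result about the set. Fabp3, Acadvl, Acadm and Acot13 stayed lower in AFNCM there, with log2 ratios of -0.51, -1.64, -0.46 and -0.24. Over all kept wells of a name, the genes gave 11.02 UMIs per 100 cardiomyocyte marker UMIs in AFNCM, 9.60 in NFNCM and 10.3 in NCM0. The same ratio was 233 in AF and 40.0 in NF wells, whose cardiomyocyte markers summed to 593 and 3796 CPM. In NF wells that was not far below the fibroblast marker sum of 4855 CPM. The gap between AFNCM and NFNCM lay in the bulk direction but was smaller than that of the bulk libraries. How much of it came from wells rich in fibroblast markers was not tested. The part of well content in the difference between bulk and wells was not tested.

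**Figure D5:**
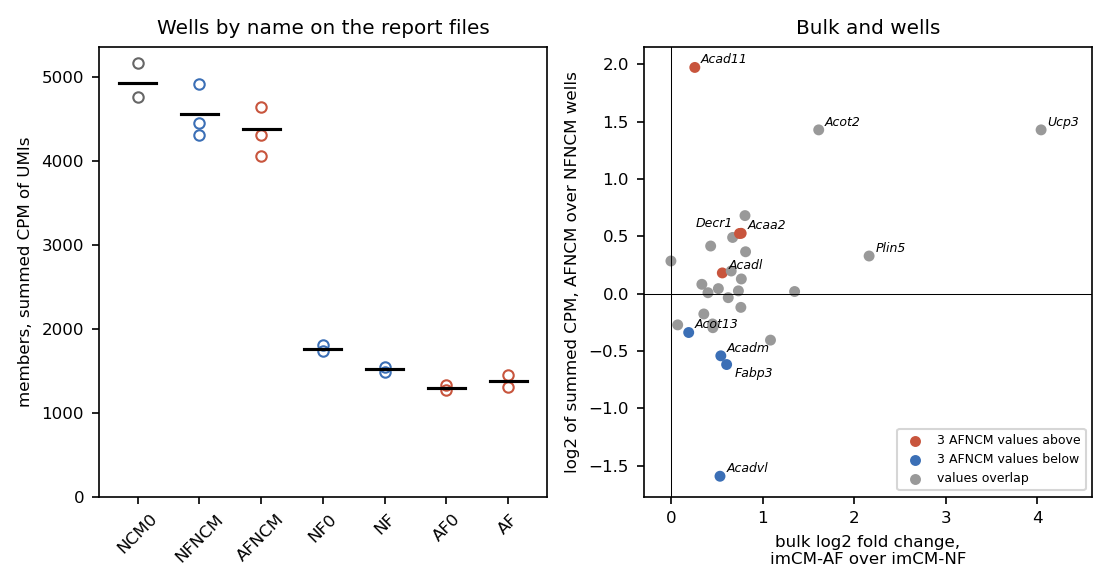
Left, summed CPM of the 31 genes by well name, where circles are the numbered values of a name and bars the sum over its wells. Right, for 30 genes, the bulk log2 fold change against the log2 ratio of summed CPM in AFNCM over NFNCM wells, red or blue where the 3 numbered values of AFNCM lie above or below those of NFNCM. The cardiomyocyte names stand between 4384 and 4933 CPM and the fibroblast names between 1292 and 1760 CPM, and the bulk values on the right are nearly all above 0 while the well values fall on both sides of it.

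The genes with the steepest bulk rise were thinly sampled in the wells. Ucp3 was seen in 9 of 497 AFNCM wells (1.81%), 5 of 511 NFNCM wells (0.978%) and 2 of 253 NCM0 wells (0.791%). On the fibroblast chip it was seen in 5 of 182 AF0 wells (2.75%), the highest raw share of any name. The others there were 1 of 319 NF0 wells (0.313%), 1 of 257 NF wells (0.389%) and 0 of 229 AF wells. AF0 wells were also the deepest, with a median of 43012 UMIs against 18838 in AFNCM. Thinned to 5000 UMIs per well, the Ucp3 shares were 0.737% in AFNCM, 0.355% in NFNCM, 0.104% in NCM0 and 0.326% in AF0 wells. Plin5 was seen in 8 AFNCM wells, 2 NFNCM wells and 1 NCM0 well, against 2 NF wells, 1 AF0 well and 0 AF and NF0 wells. With the same thinning the Plin5 shares were 0.508% in AFNCM, 0.254% in NFNCM and 0.317% in NF wells. No order is read from shares this close to those of the fibroblast chip. Acot2 was seen in 19.7% of AFNCM wells and 10.96% of NFNCM wells, against 17.5% of AF, 10.1% of NF, 18.7% of AF0 and 17.6% of NF0 wells. After thinning each well to 5000 UMIs the Acot2 shares were 9.13% and 4.86%, against 6.87% in AF, 2.88% in NF, 4.72% in AF0 and 5.07% in NF0 wells. Fabp3 was seen in 66.2% of AFNCM and 72.6% of NFNCM wells. After thinning it was seen in 50.4% and 66.7%, against 5.91% of AF, 11.1% of NF, 1.90% of AF0 and 12.8% of NF0 wells.

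Cpt1b was nearly missing from the wells although it was among the more abundant genes in bulk. It had 0 UMIs in 497 AFNCM wells, which allows a share of wells with a UMI of up to 0.604%, 3 UMIs in 2 of 511 NFNCM wells and 1 UMI in NCM0, where Cpt1a had 296, 189 and 80 UMIs. The bulk libraries held 1967 to 4812 counts of Cpt1b each. In the GENCODE M21 annotation of GRCm38, 81.4% of the exon bases of Cpt1b are shared with another gene on the same strand, Gm44502, whereas the bulk counts used a RefSeq annotation. Etfb, at 588 CPM in AFNCM, shares 58.2% of its exon bases with same-strand genes. Acadvl, at 2.80 CPM in AFNCM and 8.45 CPM in NFNCM, shares 42.9% with Dvl2 on the opposite strand. Over the other members the same-strand share was at most 1.7%. The part of such sharing in the counts was not tested.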

How the data were processed

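Bulk RNA-seq was available for 2 imCM-NF and 2 imCM-AF libraries, and single-cell data for 2 ICELL8 chips. For bulk, the authors deposited raw counts per gene: per the study's methods reads were aligned to mm10 with subread, and uniquely placed reads were assigned by featureCounts to its built-in RefSeq genes. For the chips, UMI counts were deposited for every gene of each well, aligned to mm10 with STAR and assigned to Ensembl genes, with a report giving each well its name and its counts of screened and aligned read pairs, from which the percent aligned was computed for filtering. The submitters' processing notes name STAR 2.5.2b and Subread 1.4.6-p1. No source used here says whether counting was stranded.

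Symbols and coordinates came from RefSeq (GRCm38.p6) by Entrez identifier. No symbol was found for 1904 of 27179 identifiers, which held 3.52% of counts. Genes with CPM over 1 in at least 2 libraries were tested with edgeR 4.0.16 in R 4.3.3 (TMM, group as the only term). The standard error was the log2 fold change over the square root of F. RPKM used the longest APPRIS principal transcript of GENCODE M21. Replicates differed by more than counting noise (chi-square per degree of freedom 8.60 and 8.42). The procedure was also run on simulated data, the outcome of which is not given and on which no statement here rests. DESeq2 1.42.0 and limma-voom (limma 3.58.1) were alternatives, with other scalings, filters, thresholds, a replicate block and single libraries left out.

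Kept wells had at least 500 genes, over 50% aligned and UMI totals within 2 SD of the mean. Spike-ins and mitochondrial genes were left out, and doublets were not called. The Type names of wells are the authors' text.

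The 31 genes, the lipid lists and the markers were chosen with earlier results of these data known. All 31 are described. Called genes are given by library, others by their change, and in other lists called genes are named, up to 4 by size of change. Fads1, Me1 and the last 4 regulators lie outside that rule and were named after their values were seen.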

Additional observations from a re-analysis of the deposited data

Results flagged for a closer look

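For 4 of the 31 genes the order of the groups in bulk was opposite to that in the wells. Fabp3, Acadvl, Acadm and Acot13 were higher in both imCM-AF libraries than in both imCM-NF libraries, while all 3 numbered values of AFNCM wells lay below all 3 of NFNCM wells. The log2 ratio of summed CPM in AFNCM over NFNCM was -0.62 for Fabp3, -1.59 for Acadvl, -0.54 for Acadm and -0.34 for Acot13. The bulk log2 fold changes of the same genes were 0.61, 0.54, 0.54 and 0.19. Of the 4 only Fabp3 was called, and Acot13 was not past the adjusted p threshold (edgeR quasi-likelihood test, adjusted p = 0.17). The difference between bulk and wells was not tested, and among 93 other lipid genes 7.53% also had all 3 AFNCM values below. Acadvl shares exon bases with Dvl2 on the opposite strand, the part of which in its counts was not tested, and its ratio rests on 37 UMIs in AFNCM and 100 in NFNCM.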

How the results depend on the processing

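The count of called genes among the 31 was 17 under the other size factors, DESeq2, limma-voom, both other filters and the replicate block, with the same 17 genes each time, and 19 with upper quartile scaling, which added Acadl and Acadm. No setting called a gene lower. A log2 threshold of 1 left 6 of the 31 (565 of all genes, 393 higher and 172 lower), and the adjusted p alone gave 27 (3789, 1759 higher and 2030 lower). Leaving out 1 library at a time gave 13 to 21 called members, a median of 0.479 to 0.779 and 879 to 1929 called genes among all tested, of which 498 to 1074 were higher and 381 to 855 lower. Without imCM-NF replicate 2, the library with the lowest cardiomyocyte marker level, Fabp3 (0.43), Crat (0.49), Acaa2 (0.57) and Etfdh (0.48) fell under the fold threshold. The lowest totals, 879 and 988, came when imCM-NF replicate 2 or imCM-AF replicate 2 was left out. Without either imCM-AF library Ucp3 missed the low-value filter. In these fits the lone library is assumed to vary like the other group. Acads changed sign, at 0.0071 with the other size factors, 0.0065 with DESeq2, 0.033 with upper quartile scaling, 0.014 with CPM over 5, 0.00073 with the crossed block, and ranged from -0.092 to 0.098 when 1 library was left out, with 0.075 without imCM-AF replicate 2.

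The replicate numbers are not shown to pair the libraries (correlation of deviations -0.13 over all tested genes and 0.33 over the 31), the replicate block gave 17 called members, 25 in place of 27 past the adjusted p alone, and 1430 called genes, and crossing the numbers, an alternative added after seeing the data, gave 17 and 1668. Per 100 cardiomyocyte marker counts, the means of 15.7 and 21.9 without Myh6 and Nppa, and of 7.54 and 10.8 without Cd36, Lpl and Fabp3, kept imCM-AF above imCM-NF. In the wells, keeping those with the larger marker sum of their own cell type moved the summed CPM to 5120 in NFNCM, 5178 in AFNCM, 1241 in NF and 1477 in NF0, and weighing each well alike to 4030 in AFNCM, 1461 in NF and 1678 in NF0. The order of AFNCM and NFNCM thus depended on which wells were kept. Few UMIs limit Ucp3, Plin5 and Acss1 in the wells.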
